A study of Mus musculus with 21 samples.

Results

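Transcript levels of 10 genes of the primitive streak and of the Wnt pathway were followed in embryoid bodies, the clusters that mouse embryonic stem cells form as they differentiate. The genes were listed by symbol, with earlier results of these data known. The list holds the ligands Wnt3, Wnt8a and Fgf8, the Wnt-responsive genes Axin2 and Sp5, the T-box factors T and Eomes, and the homeobox factors Mixl1, Gsc and Evx1. They are 10 of the 48321 symbols in the count tables, and all 10 are among the 14311 genes that passed the filter on low counts. Evx1 and Sp5 passed that filter only through the parental samples, so they had to differ from that group, and counts of genes that fell are given below with and without them.

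The study used A2loxCre embryonic stem cells (strain label C57BL/6), in which a coding sequence is integrated downstream of a doxycycline-inducible promoter, and RNA was taken on day 3 of differentiation, 16 h after induction. There were 7 groups of 3 samples. The parental A2loxCre line was given doxycycline. The line with the TWIST1 monomer was sampled without doxycycline (the uninduced monomer line) and with it (the induced monomer). The 4 remaining groups were given doxycycline and carried a TWIST1-TWIST1 homodimer, or TWIST1 joined to the E-proteins TCF3, TCF4 or TCF12. TWIST1 belongs to the basic helix-loop-helix factors, which bind E-box DNA in pairs. The induced and uninduced monomer samples share a construct, whereas every other comparison is between lines. The uninduced monomer line differs from the parental line both in its construct and in doxycycline, and these cannot be told apart. The induced groups also differ from the uninduced monomer line in doxycycline itself, which cannot be told apart from the induced factor. Nothing in the labels says that samples of a group came from separate cultures or clones, so p-values measure the spread between these samples, which may be technical.

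The primitive streak is the region of the early embryo where epiblast cells enter the mesoderm and endoderm lineages. Wnt ligands act through Frizzled and LRP receptors to stabilise beta-catenin, which joins TCF/LEF factors on DNA and raises targets such as T, Sp5 and Axin2. Nodal signalling acts in parallel and drives Eomes, Mixl1 and Gsc. In embryoid bodies the appearance of T and Mixl1 is a usual sign that streak-like cells are forming.

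The promoters of Sp5, T and Axin2 are shown because these Wnt-responsive genes differed most in how the groups were arranged: Sp5 was near 0 outside the parental line, T was partly kept in 1 group, and Axin2 was partly kept in all. Each is the 250 bases upstream of the RefSeq start on the build GRCm38.p6 (plus strand; the Axin2 window lies inside the annotated span of the gene, which begins at base 108917828 of chromosome 11), in lower case, with the TCF/LEF core CTTTGA in capitals (TCAAAG where it lies on the reverse strand).
Sp5, chr2:70474673-70474922: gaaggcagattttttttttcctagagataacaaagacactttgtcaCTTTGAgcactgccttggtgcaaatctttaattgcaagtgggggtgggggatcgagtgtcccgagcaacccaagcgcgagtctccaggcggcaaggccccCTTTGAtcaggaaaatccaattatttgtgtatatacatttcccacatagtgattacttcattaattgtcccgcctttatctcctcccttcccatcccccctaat
T, chr17:8434173-8434422: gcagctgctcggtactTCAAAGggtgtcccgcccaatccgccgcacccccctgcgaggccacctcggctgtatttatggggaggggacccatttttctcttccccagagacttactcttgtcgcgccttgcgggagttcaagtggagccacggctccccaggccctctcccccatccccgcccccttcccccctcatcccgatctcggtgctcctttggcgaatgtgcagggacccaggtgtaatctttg
Axin2, chr11:108920099-108920348: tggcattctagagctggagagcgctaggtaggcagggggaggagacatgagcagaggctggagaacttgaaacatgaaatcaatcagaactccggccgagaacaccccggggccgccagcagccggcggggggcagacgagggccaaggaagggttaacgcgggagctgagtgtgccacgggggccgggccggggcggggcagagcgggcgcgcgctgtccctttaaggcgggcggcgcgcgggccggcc
Sp5 has 2 matches to the core, starting at bases -204 and -104 from the start, and T has 1 at -234. The Axin2 window holds none of these letters, and neither do the windows of Eomes, Gsc, Evx1 and Wnt3. Of all 32851 promoter windows of 300 bases in the RefSeq table, 16.0% hold at least 1 match on either strand and 1.73% hold at least 2. The E-box letters CANNTG, the kind of site that basic helix-loop-helix dimers bind, occur in the windows of T, Gsc, Evx1, Wnt3 and Sp5 and in 72.3% of all windows. The form CATNTG, which is contained in the former, occurs in those of Gsc and Evx1 and in 39.4% of all windows. The letters TCACAC, a core of the T-box site, occur in that of Evx1 and in 14.5% of all windows. Mixl1, Fgf8 and Wnt8a were not matched to a window.

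The libraries held 6648842 to 15999693 counts, so that 3 counts, taken as the smallest amount a sample can show, correspond to 0.188 to 0.451 CPM. CPM is the count scaled to a common library total, here with TMM factors, and n is 3 in every group. Twist1 was at 7.36 to 8.93 CPM in the parental samples and 4.39 to 5.64 CPM in the uninduced monomer line. It was at 583.9 to 646.3 CPM in the induced monomer and 36.1 to 199.2 CPM in the dimer groups. Tcf4 reached 304.7 to 348.2 CPM in the TCF4 dimer line against 41.0 to 55.3 CPM in the parental samples. Tcf3 in the TCF3-labelled group (150.6 to 159.1 CPM) lay below its parental range (161.4 to 173.2 CPM). Tcf12 in the TCF12-labelled group (53.1 to 117.6 CPM) overlapped its parental range (62.8 to 68.8 CPM). These gene-level counts do not set those 2 groups apart as labelled, which are therefore called the TCF3-labelled and TCF12-labelled group. TCF12-labelled sample 1 stood apart, with a mean correlation of 0.955 with the other 2 of its group against at least 0.991 in the 18 samples of the other groups. The biological coefficient of variation was 0.120 with it and 0.0539 without it, so the main results for the 10 genes that involve its group are also given without it.

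All 10 genes were lower than in the parental line in each of the 6 other groups, the uninduced monomer line included. Every parental sample was above every sample of the other groups for each of the 10 genes, as were 22.7%, 21.9%, 18.1%, 25.8%, 19.9% and 16.4% of all tested genes in the uninduced monomer, induced monomer, homodimer, TCF3-labelled, TCF4 dimer and TCF12-labelled comparison. The median log2 fold change of the 10 genes was -3.16 in the uninduced monomer line, -3.85 in the induced monomer, -3.05 in the homodimer, -3.97 in the TCF3-labelled group, -3.80 in the TCF4 dimer and -3.48 in the TCF12-labelled group. The median of all tested genes lay between 0.00 and 0.02 in these comparisons. The medians of the 10 genes include Evx1 and Sp5. All 10 passed in each comparison (edgeR quasi-likelihood test, Benjamini-Hochberg adjusted p under 0.05), as did all 8 without Evx1 and Sp5. In the TCF12-labelled group the log2 fold changes ran from -4.94 to -1.36, and without its sample 1 from -5.61 to -1.24 with all 10 still called. The share of all tested genes called lower was 9.43% in the uninduced monomer line, 9.22% in the induced monomer and 4.02% in the homodimer. It was 12% in the TCF3-labelled group, 5.67% in the TCF4 dimer and 11.5% in the TCF12-labelled group. Between 8 and 10 of the genes, or 6 to 8 without Evx1 and Sp5, fell by at least 2 on the log2 scale, a fall called in 0.377%, 0.475%, 0.21%, 0.384%, 0.259% and 0.314% of all tested genes in the same order of groups. These 6 comparisons share the parental samples, so they are not independent of each other. The 10 genes were chosen with earlier results of these data known, so setting them beside all tested genes is a description. In bulk RNA, fewer cells that express a gene and less RNA per cell cannot be told apart.

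**Figure D1:**
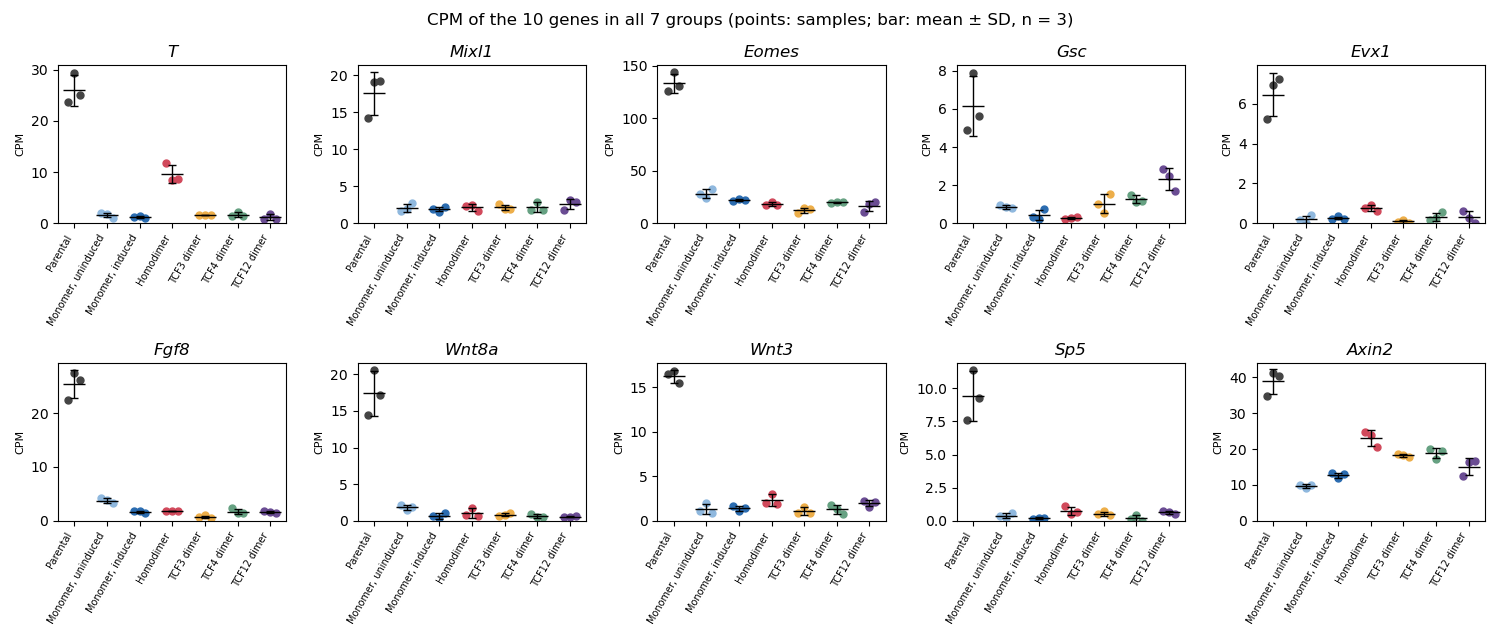
CPM (linear axis from 0) of the 10 genes in the 7 groups; points are samples and the bar is the mean ± SD (n = 3). In every panel the 3 parental samples lie above all other samples, and T in the homodimer, Gsc in the TCF12-labelled group and Axin2 in the 4 dimer groups lie nearest to them.

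Wnt3, the ligand needed to start the streak, was at 16.4, 16.8 and 15.4 CPM in the parental samples and at 0.729 to 3.05 CPM in the 18 other samples. Its lowest parental sample was thus far above the highest of the rest, which belonged to the homodimer. Wnt8a, a ligand expressed in the streak and the posterior epiblast, was at 14.5, 20.6 and 17.2 CPM in the parental samples. It was at 2.11, 1.46 and 1.85 CPM in the uninduced monomer line and at 0.337 to 1.79 CPM in the 15 induced samples. Fgf8, the growth factor that cells need to leave the streak, was at 22.5, 27.5 and 26.2 CPM in the parental samples. In the uninduced monomer line Fgf8 was at 4.22, 3.76 and 3.22 CPM, the highest 3 values outside the parental line. The log2 fold changes of uninduced monomer against parental were -3.58 ± 0.28 for Wnt3 (SE, adjusted p = 2.2e-08), -3.28 ± 0.26 for Wnt8a (3.2e-08) and -2.78 ± 0.16 for Fgf8 (9.7e-10), by edgeR.

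Axin2, which encodes a scaffold of the beta-catenin destruction complex and feeds back on Wnt signalling, kept the largest share of its parental level. It was at 34.8, 41.4 and 40.4 CPM in the parental samples, 10.1, 9.08 and 9.85 CPM in the uninduced monomer line and 13.2, 11.9 and 13.0 CPM in the induced monomer. The homodimer samples, at 24.8, 24.0 and 20.7 CPM, were the highest of the rest. The values were 18.6, 18.3 and 17.7 CPM in the TCF3-labelled group, 19.9, 17.2 and 19.5 CPM in the TCF4 dimer and 12.4, 16.4 and 16.5 CPM in the TCF12-labelled group. The homodimer mean was thus 59.6% of the parental mean and the uninduced monomer mean 24.9%, with log2 fold changes of -0.75 ± 0.11 (adjusted p = 7.9e-05) and -2.01 ± 0.12 (9.7e-10, edgeR).

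Sp5, a zinc-finger factor induced by Wnt signalling, lay near 0 outside the parental line. It was at 7.62, 11.4 and 9.27 CPM in the parental samples, from 70, 105 and 92 counts. In the other 18 samples it had 0 to 10 counts, or at most 1.08 CPM. Its order among those groups was largely not detectable at this depth, and no pair of them passed in the fit of all samples. Over their 3 samples the homodimer held 22 Sp5 counts and the induced monomer 5, with 1 or 2 a sample. The mean CPM in the parental line was 12.7 times that in the homodimer and 51.1 times that in the induced monomer. For the ratios of summed counts, scaled by library size, the 95% counting intervals were 8.39 to 21.04 and 22.2 to 163.1. These intervals cover counting error only, so the sizes are uncertain and the 2 groups are not ranked by them.

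T (Brachyury), the T-box factor that defines the streak and nascent mesoderm, was at 23.6, 29.4 and 25.0 CPM in the parental samples. The homodimer samples were at 11.7, 8.52 and 8.73 CPM. No other sample exceeded 2.22 CPM, so the 7 groups formed 3 levels. The uninduced monomer line was at 1.95, 1.77 and 1.07 CPM, the induced monomer at 1.14, 1.46 and 0.966 CPM, and the TCF3-labelled group at 1.57, 1.67 and 1.54 CPM. The TCF4 dimer line was at 1.34, 2.22 and 1.34 CPM and the TCF12-labelled group at 0.838, 1.88 and 0.887 CPM. The homodimer mean was 37.1% of the parental mean, and the means of the other 5 groups were 4.56% to 6.27% of it.

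Eomes, the T-box factor of the anterior streak and endoderm, had the highest CPM of the 10 genes in the parental samples, at 125.5, 143.7 and 130.2 CPM. It was at 27.6, 24.2 and 32.4 CPM in the uninduced monomer line and at 20.9, 22.8 and 22.2 CPM in the induced monomer. Its lowest values were 9.58, 14.1 and 13.1 CPM in the TCF3-labelled group, whose mean was 9.20% of the parental mean. The homodimer (17.4 to 20.3 CPM) and the TCF4 dimer (18.9 to 20.4 CPM) overlapped, and samples 2 and 3 of the TCF12-labelled group (17.9 and 20.6 CPM) lay at the same level, with sample 1 below them.

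Among the homeobox genes, Mixl1, a Nodal target of the streak, was at 14.3, 19.2 and 19.2 CPM in the parental samples and at 1.57 to 3.11 CPM in all others. Its log2 fold changes against the parental line ran only from -3.21 to -2.74. Gsc (goosecoid), a mark of the anterior streak and organiser, was at 4.90, 7.90 and 5.64 CPM in the parental samples. It had 2 or 3 counts in each homodimer sample (0.216, 0.269 and 0.308 CPM) and reached 2.83, 2.46 and 1.69 CPM in the TCF12-labelled group. Evx1, a mark of the posterior streak, was at 5.23, 6.93 and 7.26 CPM in the parental samples, from 184 counts in all. It had 3 counts over the TCF3-labelled group, a ratio of 76.7 with a 95% counting interval of 25.8 to 375.1. The other 5 groups had 5 to 23 Evx1 counts over their 3 samples.

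Evx1os, an antisense transcript that overlaps Evx1 by 1335 bases on chromosome 6 (GRCm38.p6), passed the filter on low counts only through the parental samples, as Evx1 did, so its lower level in the 6 other groups is a description. Its parental samples held 57 counts in all. The other groups held 0 to 10 counts over their 3 samples, with 0 in the TCF4 dimer. Whether the counting used strand is not given in the sources used here, so reads of this pair may be shared. Axin2 and Eomes also overlap an antisense gene in the annotation, and that beside Axin2 had 5 counts over all 21 samples.

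Against the uninduced monomer line the picture was smaller and mixed. In the monomer line with doxycycline against without it, the only comparison within 1 line, 1 of the 10 genes was lower. Doxycycline itself and the TWIST1 it induces cannot be told apart here, since no line lacking the construct was sampled without doxycycline. Fgf8 went from 3.22 to 4.22 CPM without doxycycline to 1.40 to 1.80 CPM with it, a log2 fold change of -1.17 ± 0.22 (SE, adjusted p = 0.0051, edgeR). The groups did not overlap, and 0.475% of all tested genes were called lower in this comparison. Wnt8a was also lower in every induced sample (-1.40 ± 0.42, adjusted p = 0.12), but it passed only without TCF12-labelled sample 1 (0.040) or when these 2 groups were fitted alone (0.049). Eomes (-0.35, adjusted p = 0.52) and Axin2 (0.40, 0.15) did not overlap between the groups either, as held for 10.6% (lower) and 10.9% (higher) of all tested genes, and passed in the fit without that sample (0.043 and 0.042, edgeR). The interval of the difference was -0.81 to 0.46 for Mixl1, -1.14 to 0.37 for T and -0.79 to 0.84 for Wnt3, none of which passed.

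Axin2 was higher than in the uninduced monomer line in all 4 dimer groups. Its log2 fold changes were 1.26 ± 0.12 in the homodimer (adjusted p = 1.8e-07), 0.92 ± 0.12 in the TCF3-labelled group (9.8e-06), 0.97 ± 0.12 in the TCF4 dimer (3.4e-06) and 0.65 ± 0.12 in the TCF12-labelled group (0.00030), by edgeR. No dimer sample overlapped with the uninduced samples, but the share of all tested genes that did the same was not counted. In these comparisons 22.8%, 28.9%, 32.3% and 37% of all tested genes were called in either direction. Axin2 and Wnt3 lie on chromosome 11, and the median log2 fold change of the 1090 tested genes of that chromosome exceeded that of the rest by 0.22 in the TCF3-labelled group, against 0.00 to 0.04 in the other 3 dimer groups. Its part in the value for Axin2 there was not tested. Without sample 1 the value in the TCF12-labelled group was 0.78 (adjusted p = 2.1e-06, edgeR).

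Fgf8 was lower than in the uninduced monomer line in all 4 dimer groups, by 1.04 to 2.38 on the log2 scale. It was lowest in the TCF3-labelled group, at 0.660, 0.970 and 0.487 CPM (-2.38 ± 0.24, adjusted p = 5.5e-07, edgeR). The homodimer (1.83, 1.79 and 1.75 CPM), the TCF4 dimer (2.28, 1.37 and 1.46 CPM) and the TCF12-labelled group (1.89, 1.64 and 1.45 CPM) lay at the level of the induced monomer. Their log2 differences from the induced monomer were 0.13, 0.05 and 0.01, with 95% intervals inside -0.50 to 0.65.

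Eomes passed as lower in all 4 dimer groups too, with log2 fold changes of -0.61 in the homodimer (adjusted p = 0.013), -1.20 in the TCF3-labelled group (3.2e-05), -0.50 in the TCF4 dimer (0.025) and -0.76 in the TCF12-labelled group (0.0016, edgeR). The call in the homodimer was lost without uninduced sample 3, homodimer sample 1 or homodimer sample 3 (adjusted p up to 0.086). That in the TCF4 dimer was lost without uninduced samples 1 or 3 or any TCF4 sample (up to 0.14), and the other 2 calls held in every such fit. Wnt8a passed as lower in the 3 heterodimer groups, by -1.07 in the TCF3-labelled group (adjusted p = 0.038), -1.41 in the TCF4 dimer (0.0079) and -1.66 in the TCF12-labelled group (0.0037, edgeR), where it had 5 to 8 counts a sample. Without TCF12-labelled sample 1 the values of that group were -0.55 for Eomes, -1.62 for Wnt8a and -1.24 for Fgf8, and all 3 still passed. The Wnt8a call in the TCF3-labelled group was lost without uninduced samples 1 or 3 or TCF3-labelled samples 1 or 2 (up to 0.15, edgeR). In the homodimer the Wnt8a difference was -0.71, with an interval of -1.48 to 0.07.

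T was higher in the homodimer than in the uninduced monomer line by 2.63 ± 0.26 (adjusted p = 3.0e-07, edgeR). This is a comparison between lines, and T in the homodimer was below the parental line (-1.43). In the heterodimer groups T did not pass against the uninduced monomer line. The log2 differences there were 0.04, 0.05 and -0.34 (-0.15 in the TCF12-labelled group without sample 1). Gsc was higher in the TCF12-labelled group (1.43 ± 0.36, adjusted p = 0.0040, and 1.28 without sample 1). It passed as lower in the homodimer (-1.64 ± 0.55, adjusted p = 0.039), a call lost without any 1 of the 6 samples compared (up to 0.11, edgeR), on 2 to 8 counts a sample. Mixl1, Wnt3, Sp5 and Evx1 passed in none of the comparisons with the uninduced monomer line.

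In all, 5 of the 10 genes were called in the homodimer, where 22.8% of all tested genes were. In the TCF3-labelled group 4 were called beside 28.9%, in the TCF4 dimer 4 beside 32.3%, and in the TCF12-labelled group 5 beside 37%. In the induced monomer 1 was called beside 2%. With 10 genes, 1 gene is 10% of the members, and nothing particular to them is read from these counts. The 5 comparisons share the uninduced samples.

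**Figure D2:**
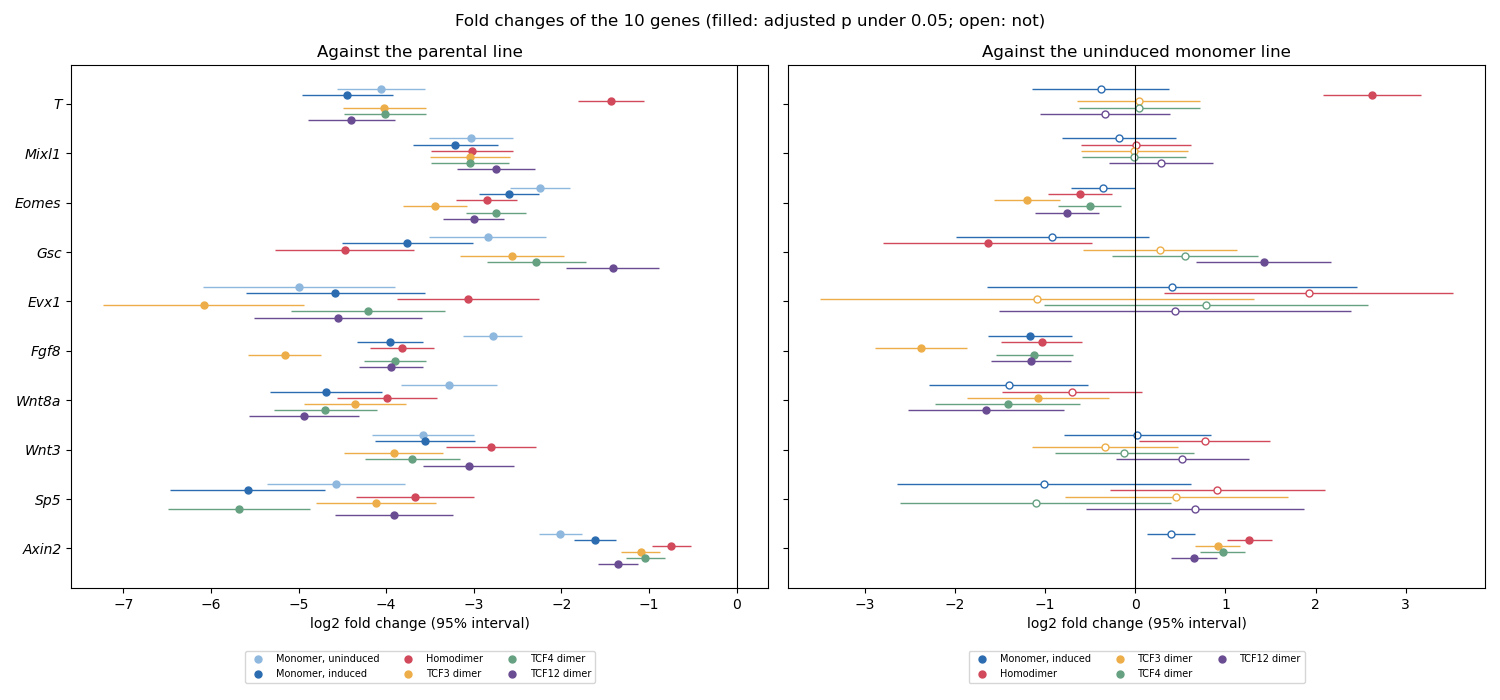
Log2 fold changes with 95% intervals of the 10 genes against the parental line (left) and the uninduced monomer line (right); filled points have an adjusted p under 0.05. On the left all 60 points lie below 0 and are filled, and on the right T in the homodimer (2.63) and Fgf8 in the TCF3-labelled group (-2.38) lie farthest from 0.

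The heterodimer groups differed from the homodimer mainly in T and Gsc, which moved in opposite directions. T was 8.52 to 11.7 CPM in the homodimer and 0.838 to 2.22 CPM in the 9 heterodimer samples, a log2 difference of -2.71 ± 0.18 (adjusted p = 6.3e-09, edgeR). Gsc was 0.216 to 0.308 CPM in the homodimer and 0.529 to 2.83 CPM in the heterodimer samples, a log2 difference of 2.39 ± 0.42 (adjusted p = 0.00051, edgeR). The homodimer side of the Gsc difference rests on 2 or 3 counts a sample, so its size is uncertain, and Gsc in the induced monomer (2 to 7 counts) overlapped the homodimer. In neither gene did the samples overlap, which held for 4.13% (lower) and 5.07% (higher) of all tested genes. Taken one by one, the heterodimer groups had T differences of -2.59, -2.58 and -2.96 and Gsc differences of 1.91, 2.19 and 3.06 for TCF3, TCF4 and TCF12, and each passed, beside 22.9%, 5.83% and 15.4% of all tested genes. The Gsc call for TCF3 was lost without its sample 3 (adjusted p = 0.060, edgeR), and without sample 1 the TCF12 values were -2.79 for T and 2.91 for Gsc.

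Axin2 was lower in the heterodimers together by 0.42 on the log2 scale (-0.42 ± 0.09, adjusted p = 0.0025, edgeR). At 17.2 to 19.9 CPM, 2 of the groups lay close below the homodimer range. By group the Axin2 difference was -0.35 for TCF3 (adjusted p = 0.026), -0.29 for TCF4 (0.14, not passing) and -0.61 for TCF12 (0.00078, edgeR). The TCF3 call was lost without homodimer samples 1 or 2 or any TCF3-labelled sample (up to 0.11, edgeR). Evx1 passed as lower too (-1.88 ± 0.55, adjusted p = 0.027), but its samples overlapped and the call was lost without any 1 homodimer sample (up to 0.14, edgeR). Wnt3 was at 1.94, 3.05 and 1.85 CPM in the homodimer and 0.729 to 2.20 CPM in the heterodimers. Its log2 difference was -0.75 ± 0.26 (adjusted p = 0.063), and 0.017 without TCF12-labelled sample 1 (edgeR). Without that sample T differed by -2.66, Gsc by 2.33, Axin2 by -0.38 and Evx1 by -2.23. In this comparison 4 of the 10 genes were called and 14% of all tested genes.

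**Figure D3:**
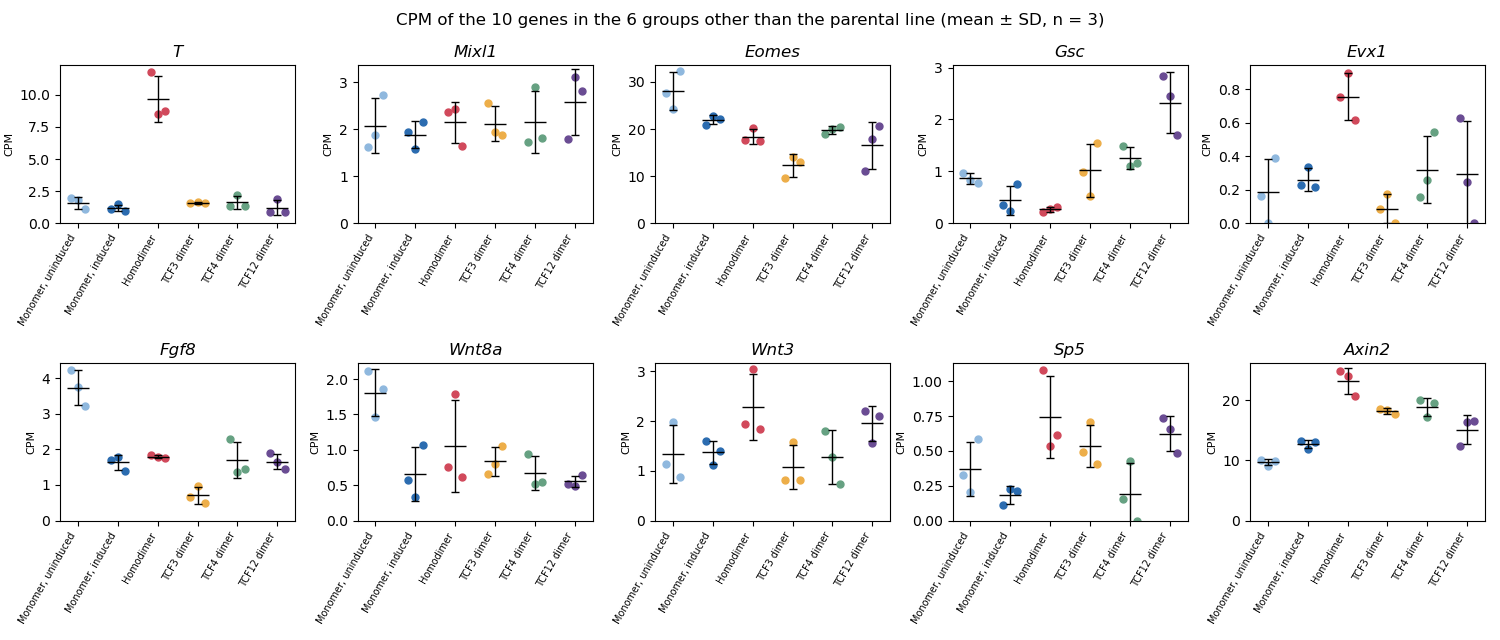
CPM (linear axis from 0) of the 10 genes in the 6 groups other than the parental line; points are samples and the bar is the mean ± SD (n = 3). T stands out in the homodimer (8.52 to 11.7 CPM), and Fgf8 is highest in the uninduced monomer line.

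Among the heterodimers, Fgf8 and Eomes were lowest in the TCF3-labelled group. Fgf8 was higher in the TCF4 dimer by 1.26 ± 0.26 (adjusted p = 0.0019) and in the TCF12-labelled group by 1.22 ± 0.27 (0.0044). Eomes was higher in the TCF4 dimer by 0.69 ± 0.17 (0.0070), and in the TCF12-labelled group the difference was 0.44 (0.081). Gsc was higher in the TCF12-labelled group than in the TCF3-labelled group by 1.15 ± 0.32 (0.019, edgeR). Without sample 1 the 3 differences of the TCF12-labelled group were 1.14 for Fgf8 (0.012), 0.66 for Eomes (0.00023) and 1.00 for Gsc (0.030). Leaving out a single TCF3-labelled sample ended 3 of these calls: that of Fgf8 against TCF12 without sample 3 (0.058), that of Eomes against TCF4 without sample 1 (0.067) and that of Gsc without samples 1 or 2 (up to 0.084, edgeR). No other member passed between heterodimer groups, where 19.7% of all tested genes were called between TCF4 and TCF3, 18.8% between TCF12 and TCF3 and 3.24% between TCF12 and TCF4.

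Ordered by mean CPM, the parental line came first for every gene. Of the 60 pairs of neighbouring groups, 13 passed: the 10 steps from the parental line to the next group (those of Evx1 and Sp5 included), and 3 of the other 50. Those 3 were T in the homodimer above the TCF4 dimer, Fgf8 in the uninduced monomer line above the homodimer, and Fgf8 in the induced monomer above the TCF3-labelled group. Among the 15 comparisons that leave out the parental line, 9 passed for Fgf8, 9 for Axin2, 8 for Gsc, 7 for Eomes, 5 for T, 3 for Wnt8a, 1 each for Wnt3 and Evx1, and 0 for Mixl1 and Sp5 (edgeR). Over these 15 comparisons 2% to 37% of all tested genes were called, among them 18.5%, 22.1%, 27.4% and 33.5% for the homodimer and the TCF3, TCF4 and TCF12 groups against the induced monomer. Without TCF12-labelled sample 1, Sp5 passed as higher in the homodimer than in the induced monomer (1.93, adjusted p = 0.023) and the TCF4 dimer (-2.02 from homodimer to TCF4, 0.017), on counts of 0 to 10 a sample. Mixl1 had 10 to 38 counts a sample outside the parental line.

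Levels of other cell types' markers moved along with these groups. The summed CPM of 8 primitive endoderm genes (Gata4, Gata6, Sox17, Sox7, Dab2, Pdgfra, Lamb1 and Col4a1) was 652.5 to 670.3 in the parental samples. It was 1852 to 2075 in the uninduced monomer line, 1774 to 1916 in the induced monomer and 1292 to 1450 in the TCF3-labelled group. In the homodimer (451.2 to 479.1), the TCF4 dimer (465.4 to 493.8) and the TCF12-labelled group (397.4 to 521.0) it was below the parental range. All 8 were called higher in the uninduced monomer, induced monomer and TCF3-labelled group, beside 10.5%, 10.8% and 16.3% of all tested genes. All 8 were lower in the homodimer (beside 4.02%) and 7 in the TCF4 dimer (beside 5.67%). In the TCF12-labelled group 7 were lower (beside 11.5%), while Pdgfra was higher (0.80). The part of this in the falls against the parental line was not tested. Against the uninduced monomer line, 8 of the 8 endoderm genes were lower in the homodimer, the TCF4 dimer and the TCF12-labelled group, and 7 in the TCF3-labelled group. In these comparisons 22.8%, 32.3%, 37% and 28.9% of all tested genes were called in either direction. The part of these lower endoderm levels in the differences of Axin2, Eomes, Fgf8 and Wnt8a was not tested.

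Of 10 markers of undifferentiated cells, 8 were higher than in the parental line in the uninduced monomer line and 7 in the induced monomer, with sums of 1334 to 1417 and 1232 to 1358 CPM against 1148 to 1196 CPM. In the homodimer 4 were higher and 2 lower, in the TCF3-labelled group 5 and 2, and in the TCF4 dimer and the TCF12-labelled group 0 and 8. The share of all tested genes called higher than in the parental line was 10.5% in the uninduced monomer line, 10.8% in the induced monomer, 4.81% in the homodimer, 16.3% in the TCF3-labelled group, 7.18% in the TCF4 dimer and 15.5% in the TCF12-labelled group. Nr0b1, Klf4 and Tbx3 were higher in the uninduced monomer line (1.77, 1.73 and 1.64). Esrrb fell by 0.85 and Tfcp2l1 by 1.25 in the TCF12-labelled group, and Pou5f1 (Oct4) passed only in the TCF3-labelled group (-0.48). Nanog was lower in all 6 groups, by 1.20 to 1.90 on the log2 scale. The summed CPM of 7 hemangiogenic and lateral mesoderm markers (Kdr, Hand1, Hand2, Foxf1, Etv2, Tal1 and Gata2) was 9.77 to 13.8 in the parental, monomer and homodimer samples. It was 34.4 to 46.7 in the TCF3-labelled group, 19.9 to 24.3 in the TCF4 dimer and 40.0 to 59.1 in the TCF12-labelled group. The part of such cells in the differences between homodimer and heterodimers was not tested. The 5 epiblast markers summed to 3342 to 3470 CPM in the parental samples and to 1462 to 3118 CPM in the other 18. Among them Fgf5 was lower in all 6 groups (-1.83 to -0.55) and Dnmt3b in all but the uninduced monomer line (-1.34 to -0.55). Pou3f1 and Dnmt3a were higher in the uninduced (0.65 and 0.24) and the induced monomer (0.36 and 0.25). Pou3f1 was lower in the TCF3-labelled and TCF12-labelled groups. Otx2 was lower in the homodimer (-0.27) and higher in the TCF12-labelled group (0.25). The 5 neural markers summed to 138.0 to 147.4 CPM in the parental samples and 63.2 to 142.0 CPM in the others. Nes was lower in 5 groups (-1.12 to -0.30), Zic1 was higher in the 3 heterodimer groups (1.33 to 2.71) and lower in the uninduced (-0.96) and induced monomer (-1.90), and Pax6 was higher in the homodimer (1.38) and the TCF12-labelled group (1.22). Over these 5 lists no gene was at 0 in every sample of a group, except 1 hemangiogenic gene in the uninduced and 1 neural gene in the induced monomer samples.

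Other Wnt feedback and target genes were called in both directions. Of the 18 listed, 15 were tested, and against the parental line 5 to 7 were lower and 0 to 6 higher in the 6 groups. In the same comparisons 4.02% to 12% of all tested genes were lower and 4.81% to 16.3% higher. Their median log2 fold change lay between -0.65 and -0.11. Tnfrsf19, a TNF receptor family member (TROY), was lower in all 6 groups, from 42.3 ± 7.05 CPM in the parental line to 5.22 ± 0.62 CPM in the TCF3-labelled group (mean ± SD). Notum, a secreted enzyme that inactivates Wnt ligands, was higher in 4 groups, with log2 fold changes of 1.68 in the uninduced monomer line, 2.35 in the induced monomer, 3.68 in the TCF3-labelled group and 3.58 in the TCF12-labelled group. The last rests on samples from 7.42 to 26.0 CPM, the highest of them sample 1. Dkk1, a secreted Wnt inhibitor, was higher in those 4 groups (1.18 to 1.79) and lower in the homodimer (-1.42). Sp8, a relative of Sp5, was lower in the monomer line (-3.17 uninduced, -2.65 induced) and in the TCF3-labelled group (-0.44). Apcdd1, a membrane inhibitor of Wnt signalling, was higher in the TCF3-labelled group (1.54), the TCF4 dimer (0.91) and the TCF12-labelled group (1.30) and lower in the uninduced monomer line (-0.70). The homeobox gene Cdx2 was lower in the TCF3-labelled group (-1.13), the TCF4 dimer (-1.57) and the TCF12-labelled group (-1.31). Lgr5, a receptor for R-spondins, was lower in the induced monomer (-2.62), the TCF4 dimer (-1.96) and the TCF12-labelled group (-1.72). Lgr5 passed the filter on low counts only through the parental samples, so its lower level is a description.

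Among the 34 tested ligands, receptors and transducers of 36 listed, 5 to 10 were lower and 2 to 5 higher than in the parental line. Of all tested genes 4.02% to 12% were lower and 4.81% to 16.3% higher. The number higher lay near that share, so nothing particular to the pathway is read from it. The median log2 fold change was -0.26 in the TCF12-labelled group and -0.06 to -0.03 in the other groups. The ligand Wnt5b and the receptor Fzd10 were lower in all 6 groups (-3.00 to -1.38 and -2.02 to -1.22). Rspo3, a secreted enhancer of Wnt signalling, was lower in 5 groups, by -2.71 in the induced and -3.13 in the uninduced monomer, -1.35 in the homodimer, -1.51 in the TCF3-labelled and -0.76 in the TCF12-labelled group; in the TCF4 dimer the difference was -0.50 (adjusted p = 0.19, edgeR). Wnt6 was higher in the monomer line without (2.62) and with induction (2.41). It passed the filter on low counts only through the samples of that line, so its higher level is a description. Wls, which carries Wnt ligands to the cell surface, was lower in both monomer groups (-0.84 with induction) and higher in the TCF3-labelled group (0.42), the TCF4 dimer (0.58) and the TCF12-labelled group (0.88). Porcn, the enzyme that attaches the lipid of Wnt ligands, was lower in the homodimer (-1.35), the TCF4 dimer (-2.45) and the TCF12-labelled group (-1.32). Wnt11 was higher in the uninduced monomer line (1.09) and the TCF3-labelled group (1.30) and lower in the homodimer (-1.39). The secreted Wnt inhibitor Sfrp5 was higher in the uninduced monomer line (1.22) and lower in the TCF4 dimer (-1.59), and Sfrp1 was higher in the homodimer (0.36). The receptor Fzd1 was higher in all 5 induced groups (0.58 to 2.14) and lower in the uninduced monomer line (-0.72). Ctnnb1, which encodes beta-catenin, had log2 differences of 0.02 to 0.15 from the parental line and passed in none of the 6 comparisons. It was looked at because of its place in the pathway, after its values had been seen.

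Of 16 other streak and nascent mesoderm genes, 12 were tested, of which 5 to 8 were lower and 2 to 4 higher than in the parental line. The shares of all tested genes were 4.02% to 12% lower and 4.81% to 16.3% higher. The median log2 fold change ran from -2.01 in the TCF4 dimer to -0.09 in the induced monomer. Cer1, a secreted inhibitor of Nodal and Wnt ligands, and the homeobox gene Nkx1-2 were lower in all 6 groups (-4.19 to -1.88 and -3.19 to -0.95). Nodal was also lower in all 6, from 81.2 ± 5.06 CPM in the parental line to 43.9 ± 2.82 CPM or less. It is outside the rule for named genes and was added after its values were seen. Dll1, a Notch ligand of the presomitic mesoderm, was higher in all 6 groups (0.88 to 2.01). Foxa2 was lower in the 4 dimer groups, by -0.83 in the TCF3-labelled group and -3.09 to -2.64 in the other 3. The growth factor Fgf4 was higher in the uninduced monomer line (1.33), the induced monomer (0.82) and the homodimer (0.66) and lower in the TCF4 dimer (-0.27). Cyp26a1, an enzyme that breaks down retinoic acid, was higher in both monomer groups (1.08 without and 0.87 with induction) and lower in the homodimer (-1.34), the TCF4 dimer (-2.13) and the TCF12-labelled group (-1.82). The Notch ligand Dll3 was lower in both monomer groups (-0.86 without and -0.66 with induction) and higher in the 3 heterodimer groups (1.12 to 1.32). The streak genes Mesp1, Tbx6, Msgn1 and Hoxb1 did not pass the filter on low counts.

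**Figure D4:**
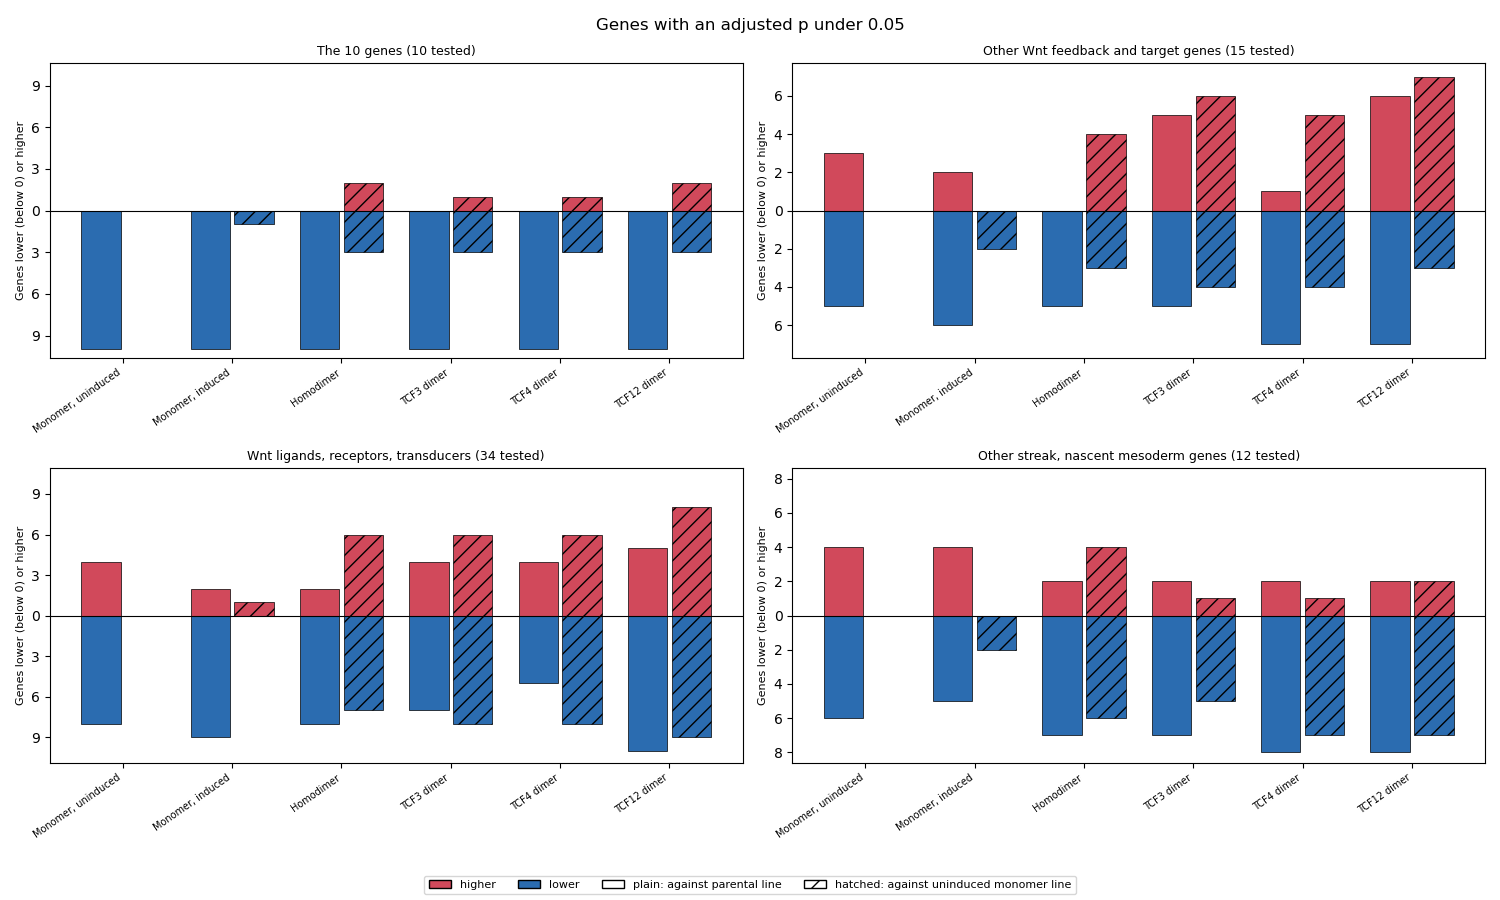
Numbers of genes called higher (above 0) or lower (below 0) in the 10 genes and 3 other lists, by group, against the parental line (plain) and the uninduced monomer line (hatched). The 10 genes are all lower against the parental line, whereas each other list has genes called in both directions in most groups.

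Over the 21 samples, the genes outside the 10 whose log2(CPM + 0.5) followed each member most closely were largely shared. Btla, an immunoglobulin-family receptor, was among the 3 nearest to 6 of the 10, and Bcat1, an enzyme of branched-chain amino acid metabolism, was the nearest to Eomes (Pearson r = 0.962), Fgf8 (0.956) and Wnt8a (0.949). Fst (follistatin, an activin inhibitor) was nearest to Mixl1 (0.950) and Sp5 (0.927), and Evx1os to Wnt3 (0.944). T had Trim67 nearest (0.951), Axin2 had Epha1 (0.956), Evx1 had Cxx1c (0.935) and Gsc had Rerg (0.897). These correlations over 14085 genes share the same libraries and the gap between the parental line and the rest, so they are descriptions without a test.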

How the data were processed

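RNA-seq was deposited as 21 tables of raw counts per gene symbol, which the authors made from TruSeq mRNA libraries; the submitters' processing notes name FastQC, TopHat2, HTSeq, mm10 and GRCm38, without versions. The annotation and the strand setting are not given in the sources used here. In 18 of the tables, 25 symbols had been turned into dates, so tables were joined by position. The counts were fitted with edgeR 4.0.16 (limma 3.58.1, R 4.3.3): 1 fit of all 21 samples, 1 mean per group, TMM factors, filterByExpr (count 10, total 15; 14311 genes), quasi-likelihood F-test, Benjamini-Hochberg adjustment over all tested genes and a threshold of 0.05. The fit was tested on simulated data. The deposited counts become CPM with TMM factors, and counting intervals are 95% exact intervals that cover counting error only. The members and lists were chosen with earlier results of these data known. All 10 members are named; from each other list, the 2 genes up and 2 down with the largest fold change against the parental line among those that pass without overlap and reach 1 CPM, and the 3 genes most correlated with each member. Alternatives were RLE factors, DESeq2 1.42.0, scaling by library size alone, no filter on counts or one of 1 CPM in 3 samples, the replicate number as a block, only the groups compared, and each sample left out.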

Additional observations from a re-analysis of the deposited data

How the results depend on the processing

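All 60 falls against the parental line kept their direction and side of the threshold under every alternative listed and without any 1 sample. Those of Evx1 and Sp5 add no support, as these genes passed the filter only through the parental samples. With a sample left out, 10 to 10 of the genes, Evx1 and Sp5 included, were called in each of these 6 comparisons. Against the uninduced monomer line, 1 to 4 were called in the induced monomer, 3 to 6 in the homodimer, 3 to 4 in the TCF3-labelled group, 3 to 4 in the TCF4 dimer and 5 to 5 in the TCF12-labelled group. The range was 3 to 5 for heterodimers against the homodimer and 12 to 18 for neighbouring groups. With only the groups compared, 2 genes were called in the induced monomer. Mixl1, never called, changed sign against the uninduced monomer line. In the TCF3-labelled group it was 0.0726 with library size only, 0.0103 without a filter, 0.0152 with the replicate number as a block and 0.00686 with only the groups compared. In the TCF4 dimer it was 0.0652 with library size only and 0.0135 without a filter. With a sample left out, the uncalled values that changed sign ranged as follows: in the induced monomer, Mixl1 from -0.29 to 0.0863, Evx1 from -0.22 to 1.84 and Wnt3 from -0.25 to 0.48; in the homodimer, Mixl1 from -0.10 to 0.28; in the TCF3-labelled group, T from -0.22 to 0.17, Mixl1 from -0.15 to 0.25, Gsc from -0.13 to 0.57, Evx1 from -1.95 to 0.33 and Wnt3 from -0.71 to 0.11. In the TCF4 dimer, T ranged from -0.21 to 0.19, Mixl1 from -0.26 to 0.26 and Wnt3 from -0.47 to 0.34; Evx1 ranged from -0.61 to 1.88 in the TCF12-labelled group, and Mixl1 from -0.0818 to 0.18 for heterodimers against the homodimer. With library size only, the calls against the uninduced monomer line of Eomes in the homodimer (adjusted p = 0.054), Wnt8a in the TCF3-labelled group (0.058) and Eomes in the TCF4 dimer (0.10) were lost, and with only the groups compared that of Eomes in the TCF12-labelled group (0.092, edgeR). DESeq2 added Evx1 in the homodimer against the uninduced monomer line (1.99, adjusted p = 0.046) and Wnt3 for heterodimers against the homodimer (-0.76, 0.034). The cause of these changes was not tested. Replicate numbers are shared by the groups, but same-numbered samples did not deviate together (mean correlation 0.0214 over 63 pairs), and with the number as a block the one call that changed was Gsc in the homodimer against the uninduced monomer line (-1.64, adjusted p = 0.058, edgeR). Calls over all genes depended on TCF12-labelled sample 1 and on the samples fitted: the uninduced monomer line against the parental line gave 2854, 5312 without that sample and 5029 with only these groups, and the TCF12-labelled group against the parental line gave 3864, 4367 and 824. Sp5 and Evx1 outside the parental line and Gsc in the monomer and homodimer samples had 10 or fewer counts a sample. So did Wnt8a in the induced monomer and TCF12-labelled samples. The order of these genes among those groups was largely not detectable at this depth, and the sizes of their differences are uncertain. Evx1 did pass as lower than in the homodimer in the TCF3-labelled group (-3.01, adjusted p = 0.012) and in the heterodimers together (-1.88, 0.027, edgeR). Gsc passed as lower in the homodimer than in the uninduced monomer line (-1.64, 0.039, edgeR). Each of these calls was lost in some fits with a sample left out.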
